A study of Drosophila melanogaster with 8 samples.

Results

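The comparison described here is that of dSTING knockdown with control in S2 cells that had been transfected with double-stranded DNA (dsDNA). S2 is a Drosophila melanogaster cell line with features of hemocytes, the blood cells of the fly. Expression was measured on 8 Affymetrix arrays in 4 groups of 2. The arrays were chosen by their titles: 2 arrays of dSTING RNAi dsDNA cells and 2 of control dsDNA cells, 4 of the 8 in all. Control cells had received non-specific double-stranded RNA (dsRNA) and dSTING RNAi cells dsRNA against dSTING, both 3 days before the DNA, so that every group carried dsRNA. The DNA was a 90-mer, and lysis followed 24 hours after it. The other 4 arrays, control mock and dSTING RNAi mock, come from cells given the transfection reagent alone. All groups are the same line, and nothing in the labels tells whether a group's 2 arrays are of different cultures. The p-values therefore cover the spread among arrays, which may be technical. The genotype tag of 4 samples follows the DNA treatment and goes against the titles, which were used here. The series states as its goal the effect of the knockdown in cells given dsDNA.

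STING is a receptor of the endoplasmic reticulum that binds cyclic dinucleotides, which cGAS and cGAS-like receptors make when they sense nucleic acid. In flies it signals through the IKK complex to the NF-kappaB factor Relish and takes part in defence against viruses. The same IKK complex, with the subunit encoded by key, serves the Imd pathway, which responds to bacterial peptidoglycan. In RNA interference, long dsRNA is cut into small RNAs that lead to degradation of a matching transcript.

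Values are intensities on a linear scale with a floor of 1, and differences are of log2(intensity + 1), dSTING RNAi minus control unless stated. Adding 1 understates the change of dim genes. A mean log2 level above 3 over the 8 arrays, an intensity of about 7, was used to mark brighter probe sets: 4189 of 18769 probe sets and, with the brightest probe set of each gene, 3543 of 11982 genes. Tests are from a limma model over all 8 arrays with Benjamini-Hochberg adjustment over all probe sets tested. The share of an array's values at the floor was 19.6% to 24.1%. Hemocyte markers were present in the 4 dsDNA arrays, with 11 of 28 above a level of 3, among them the GATA factor gene srp (44.9 and 46.8 in control, 39.2 and 54.8 in RNAi cells) and the matrix protein gene SPARC (245 and 199 against 206 and 232). Others were near the floor, including Hml and eater, and PPO1, the gene of a crystal cell phenoloxidase, was at 1 to 1.21. No fat body, muscle, neuronal or gut marker lay above that level, the highest single value being 6.78. In the germline list tud alone, of 9 measured, lay above it.

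The 2 dSTING RNAi dsDNA arrays differed from each other more than the group means did, and this touches each small difference that follows. On a principal component analysis of the 4 dsDNA arrays, the first component held 56.1% of the variance and placed dSTING RNAi dsDNA number 1 at -9.6 and number 2 at 9.6, with the controls at -1.1 and 1.1. With all 8 arrays the first component held 52.1%. It placed dSTING RNAi dsDNA number 2 at -12.5, number 1 at 5.6 and control mock number 2 at 12.2. The other arrays lay from -3.1 to 3.0, so number 2 and control mock number 2 stood farthest out. Among genes above a level of 3, 99 were over 1.5-fold higher and 52 over 1.5-fold lower in number 2 than in number 1. Between the 2 control dsDNA arrays these counts were 19 and 8. Between the group means they were 0 and 4, although a mean of 2 arrays varies less than a single one. The median absolute log2 difference was 0.196 between the RNAi dsDNA arrays, 0.130 between the control dsDNA arrays and 0.064 between the group means. A probe set of Arc1, the gene of a capsid-forming protein, was singled out after its values were seen. It varied within both groups at a high level, with 490 and 188 in the control arrays and 318 and 547 in the RNAi arrays. The wider gap was that between the controls. The groups of this probe set overlapped, with a log2 difference of 0.46. It is not the brightest probe set of its gene, so the counts above leave it out.

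**Figure D1:**
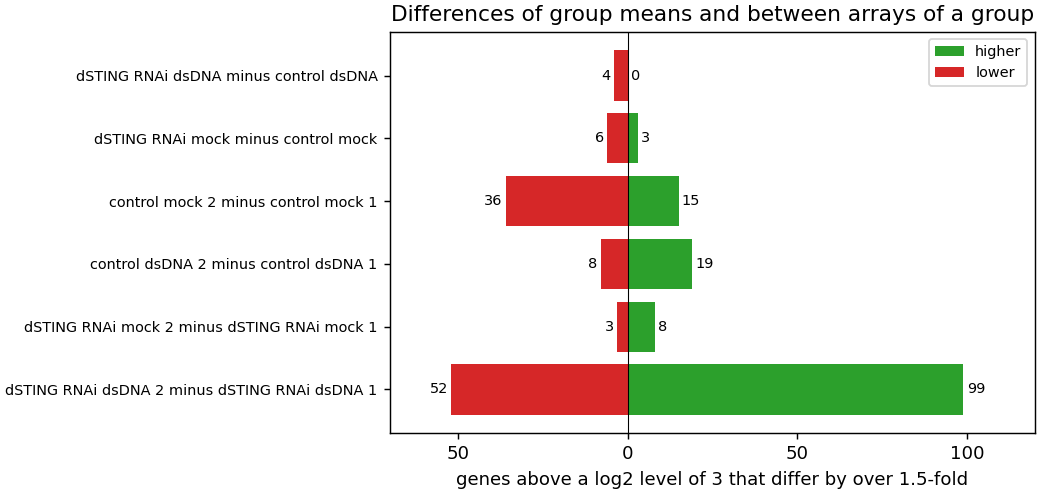
Number of genes above a mean log2 level of 3 that differ by over 1.5-fold (bars to the right, higher; to the left, lower), for 2 differences of group means and for the 2 arrays of each group. The dSTING RNAi dsDNA arrays have the longest bars (99 and 52), and the knockdown in dsDNA cells has 4 lower genes and 0 higher ones.

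Knockdown in dsDNA-treated cells went with lower levels of Sting, of the long non-coding RNA gene lncRNA:CR32368 and of CG17224, and with no gene as far above control. Sting, the targeted receptor gene, had intensities of 53.1 and 51.6 in the control dsDNA arrays and 5.33 and 8.05 in the dSTING RNAi dsDNA arrays. Both RNAi values lay far under both controls, a 7.83-fold difference of means and a log2 difference of -2.82 (SE 0.27). lncRNA:CR32368 had 58.0 and 66.6 in control and 19.0 and 28.2 in RNAi cells, 2.64-fold lower (-1.39, SE 0.19). CG17224, annotated by homology as a uridine phosphorylase, an enzyme of pyrimidine salvage, had 17.9 and 16 against 6.29 and 6.94, 2.56-fold lower (-1.24, SE 0.13). Its probe set carries the suffix of sets whose probes match more than 1 transcript. In each of these 3 genes the groups were apart and the lowest control was more than 2-fold the highest RNAi value.

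Over all 18769 probe sets, limma called none higher and none lower at an adjusted p under 0.05 (0% and 0%). At an unadjusted p under 0.05 there were 447 higher (2.38%) and 400 lower (2.13%). With the brightest probe set of each of the 11982 genes these were 319 higher (2.66%) and 235 lower (1.96%). Sting itself had an unadjusted limma p of 0.000104 and an adjusted p of 0.901. With only the 4189 probe sets above a level of 3 tested, limma called 3 lower (0.0716%) and 0 higher: Sting (adjusted p 0.00524), CG17224 (0.0229) and lncRNA:CR32368 (0.0398). At an unadjusted limma p under 0.05 the filter gave 33 higher (0.788%) and 15 lower (0.358%). The filter takes the mean over all 8 arrays, and CG17224 in 4 of 4 RNAi arrays and Sting in 3 of 4 lay under its level, so both passed it through the controls; lncRNA:CR32368 was above it in every array. The 3 calls were made only with a filter on level. A filter at the median of all probe sets, a level of 1.11, called the same 3 (limma adjusted p 0.00397, 0.0226 and 0.0408 in the same order), and every RNAi array of these genes lay above that level. The calls also depended on which arrays entered the fit with the filter at 3. Without control dsDNA number 1, or without number 2, none was called, Sting included. Without dSTING RNAi dsDNA number 1 Sting alone was called, and without number 2 all 3 were (log2 -3.08 for Sting, -1.66 for lncRNA:CR32368 and -1.30 for CG17224). Without dSTING RNAi mock number 1 or number 2 Sting alone was called, and without control mock number 1 or number 2 Sting and CG17224. For a probe set above that level the 95% interval of the difference had a median half-width of 0.29 on the log2 scale, 1.22-fold. That interval is not adjusted for the number of tests, so smaller differences were mostly not detectable even before adjustment. With adjustment larger ones also went uncalled: Zip99C (-0.84) was not called with the filter at 3, where the smallest difference called was -1.24.

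**Figure D2:**
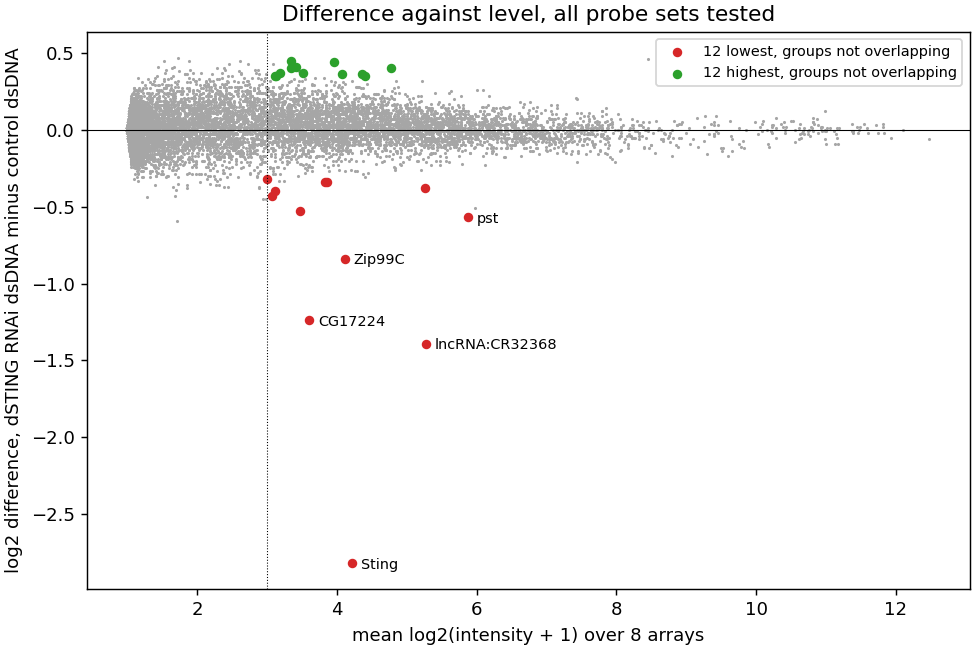
Log2 difference (dSTING RNAi dsDNA minus control dsDNA, vertical) against the mean log2 level over 8 arrays (horizontal) for the 18769 probe sets tested, with the dotted line at a level of 3. Sting, lncRNA:CR32368, CG17224 and Zip99C lie apart at the bottom, while the highest coloured gene has 0.45.

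Among the 3543 genes above a level of 3, the 2 RNAi values lay under both controls for 204 (5.76%) and over both for 392 (11.1%). The 12 lowest and 12 highest of these by log2 difference are described next. The rule uses the values of these 4 arrays, so those values are a description. The cut fell between Dci (-0.32) and mRpL21 (-0.31) on the lower side, and between Prx6a (0.35) and meso18E (0.34) on the upper side.

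The lower group held, after the 3 genes above, a metal transporter and an antiviral gene. Zip99C, which encodes an iron and zinc transporter of the ZIP family, had 25.2 and 22.2 in control and 10.2 and 15.9 in RNAi cells, 1.81-fold lower (-0.84, SE 0.25). pst (pastrel), a gene for resistance to Drosophila C virus, had 62.7 and 71.3 against 51.4 and 39.2, 1.48-fold lower (-0.57, SE 0.14). The RNAi array with the lower value was number 1 for Zip99C and number 2 for pst. Without number 2 the differences were -1.14 for Zip99C and -0.37 for pst, and without number 1 they were -0.54 and -0.76. CG33468 had 13.5 and 12.4 against 7.06 and 10.6 (-0.53, SE 0.20), with -0.27 without number 1 and -0.79 without number 2. CG6805 had 7.68 and 9.76 against 5.32 and 7.19 (-0.43, SE 0.20), with -0.24 and -0.61. For each of these 4 genes leaving out 1 of the RNAi arrays moved the value by over 1.5 times, and none passed the adjusted test with or without the filter.

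The remaining 5 genes of the lower group had smaller differences. key, which encodes the IKK gamma subunit, had 45.6 and 42.9 in control and 32.7 and 35.0 in RNAi cells, 1.31-fold lower (-0.38, SE 0.06), and leaving out either RNAi array gave -0.33 or -0.43. Tmem43, the homologue of a nuclear envelope protein gene, had 9.25 and 9.75 against 7.08 and 6.88 (-0.40, SE 0.06). Tmtc3, an O-mannosyltransferase gene, had 15.5 and 15.2 against 12.3 and 11.4 (-0.34). In these 3 the gap between groups was wider than the spread within either. Dci, an enoyl-CoA isomerase gene of fatty acid oxidation, had 7.64 and 8.36 against 6.17 and 6.27 (-0.32, SE 0.07). Scamp, a vesicle membrane protein gene, had 15.6 and 14.1 against 13.5 and 9.79 (-0.34, SE 0.16), and -0.12 without RNAi number 2. Scamp had 2 more probe sets, at -0.21 and at 0.00, the last at the floor. With all probe sets tested the adjusted limma p of these 5 genes was 0.901 or above.

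The mock arrays, which entered the choice only through the mean level over 8 arrays, showed the same direction for the lower group. A gene with RNAi values under that level, such as CG17224 or Dci, passed it through its controls, control mock among them. For such genes the agreement is not independent of the choice. Leaving out Sting, all 11 were lower in dSTING RNAi mock than in control mock cells, and in all 11 the mock groups did not overlap. Over all genes above a level of 3, the mock RNAi values lay under both controls in 21.4% and were lower on the mean in 57.6%. The median log2 difference of the 11 was -0.43 with dsDNA and -0.45 with mock. lncRNA:CR32368 had 67.4 and 67.8 in control mock and 19.1 and 21.3 in RNAi mock cells (-1.70, SE 0.19), and CG17224 had 18.8 and 23.8 against 6.46 and 5.73 (-1.65, SE 0.13). Zip99C had 23.6 and 19.2 against 9.01 and 12.6 (-0.94, SE 0.25), and pst 75.2 and 85.3 against 45.5 and 45.7 (-0.80, SE 0.14). In the smaller ones key had -0.45 and Dci -0.41, while Tmem43 had -0.17, Tmtc3 -0.14 and Scamp -0.26. The labels do not say whether both transfections were made on the same dsRNA-treated cultures.

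**Figure D3:**
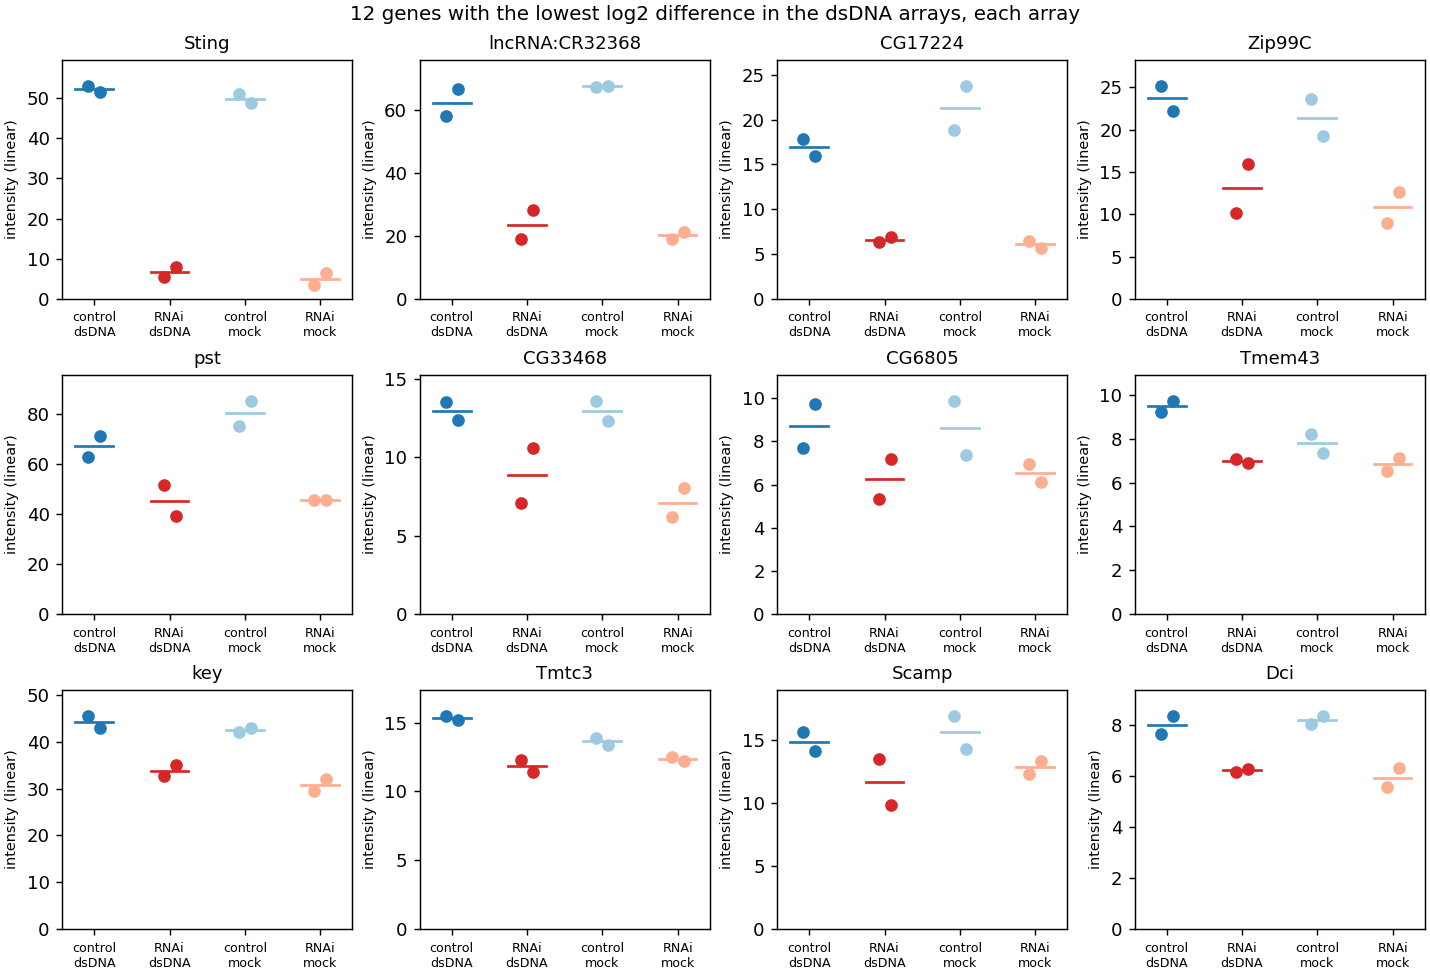
Intensity (linear, from 0) in each of the 8 arrays for the 12 genes with the lowest log2 difference among those with non-overlapping dsDNA groups; points are arrays and bars are group means. In all 12 both RNAi groups lie below their controls, for Sting at 3.45 to 8.05 against 48.7 to 53.1.

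The upper group had no gene past 0.45 and showed no shared direction in the mock arrays. CG34229 had 7.93 and 7.36 in control dsDNA and 10.1 and 11.6 in RNAi dsDNA cells (0.45, SE 0.13). TTLL12, a tubulin tyrosine ligase-like gene, had 10.3 and 13.0 against 18.6 and 13.8 (0.44, SE 0.16), and 0.23 without RNAi number 1 or 0.28 without control number 1. brun, which encodes a subunit of the TRAPP vesicle tethering complex, had 7.72 and 9.32 against 11.3 and 11.9 (0.41, SE 0.10). These 3 differences, of 1.36-fold to 1.42-fold, did not pass the test (limma adjusted p 0.963 or above). The ciliary gene Bug22 had 7.60 and 7.92 against 10.6 and 10.5 (0.40), the kinesin gene Klp98A 6.80 and 7.54 against 9.44 and 9.72 (0.37) and the bromodomain gene Brd8 9.74 and 7.96 against 11.9 and 11.5 (0.37). In these 3 the RNAi arrays lay close together. Lamtor1, a gene of the Ragulator complex on lysosomes, had 13.8 and 13.7 against 22.0 and 14.7 (0.36), so that it was at 0.09 without RNAi number 1. CG7044 (0.40), nsl1 (0.36), CG6984 (0.35), AlkB (0.35) and the peroxiredoxin gene Prx6a (0.35) made up the rest. Leaving out 1 array also moved Prx6a to 0.18 (RNAi number 1) or 0.23 (control number 2), CG7044 and Brd8 to 0.24 (control number 2) and nsl1 to 0.20 (control number 1). In mock cells 3 of the 12 had the same sign and in 0 of 12 were the RNAi values over both controls, where 42.4% and 9.14% of all genes above a level of 3 did so. The median difference of the 12 was 0.37 with dsDNA and -0.11 with mock. A gene with control dsDNA values under a level of 3, such as CG6984 or AlkB, passed it through its other arrays, control mock among them. For such genes the direction in mock cells is not independent of the choice.

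**Figure D4:**
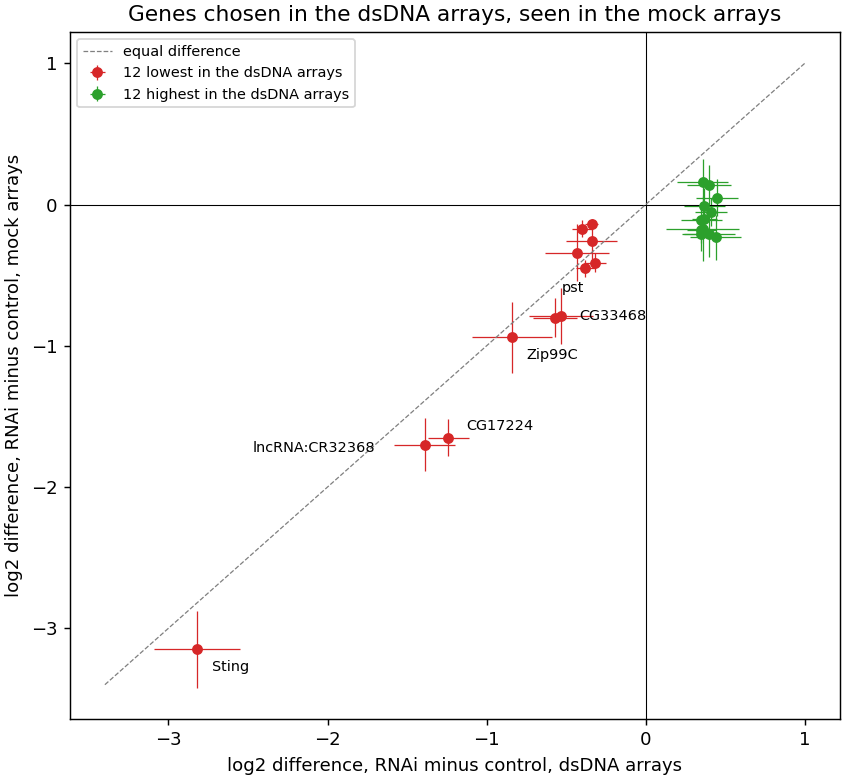
Log2 difference between RNAi and control in the mock arrays (vertical) against that in the dsDNA arrays (horizontal) for the 12 lowest and 12 highest genes chosen in the dsDNA arrays, with SE from the limma fit as bars. The lowest genes lie under 0 in both sets of arrays. Some are off the line of equal difference, such as CG17224 (-1.24 with dsDNA, -1.65 with mock) and Tmem43 (-0.40 and -0.17). The highest lie on both sides of 0 in the mock arrays.

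Whether the knockdown differed between dsDNA and mock was tested as an interaction. limma called 0 of 18769 probe sets (0%) at an adjusted p under 0.05, and 786 (4.19%) had an unadjusted p under 0.05. With the filter at a level of 3 it also called 0. The difference, dsDNA minus mock, was 0.34 (SE 0.39) for Sting, 0.31 (SE 0.26) for lncRNA:CR32368, 0.41 (SE 0.18) for CG17224 and 0.10 (SE 0.36) for Zip99C. Among the upper group it was 0.66 (SE 0.23) for TTLL12, whose dsDNA difference was 0.23 without RNAi number 1, and 0.61 (SE 0.23) for Bug22. For Klp98A it was 0.48 (SE 0.12) and for CG6984 0.53 (SE 0.13). The upper group was chosen by high dsDNA differences, which raises these values. None of the genes in this paragraph passed the adjusted test.

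Genes next to the 3 called ones were looked up in the Release 6 gene table. Tmem43, already in the lower group, is the nearest gene on one side of lncRNA:CR32368, and syd, a gene of axonal transport on its other side, lay near the floor (1.96 and 1.61 in control, 1.13 and 1.78 in RNAi cells). Beside Sting, the vesicle fusion gene Vamp7 had 23.9 and 25.3 against 20.3 and 23.0 (-0.18, SE 0.08) and the proteasome gene Prosalpha7 83.4 and 89.0 against 84.7 and 75.2 (-0.11, SE 0.07). Orc6, which overlaps Sting, was not measured by a probe set of its own. Beside CG17224, CG17264 had 1.87 and 3.02 against 1.83 and 1.85 (-0.26) and Ccdc85 2.65 and 2.62 against 2.90 and 3.05 (0.13). Of these neighbours none passed the adjusted test.

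Of probe sets with no gene name, 459 lay above a level of 3, and 0 differed by 2-fold. The lowest had 66.2 and 72.3 in control and 47.5 and 46.5 in RNAi cells (-0.55), and 71.1 and 95.5 against 38.2 and 41.7 in mock cells. It was singled out after its values were seen.

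The pathway around STING was low apart from 3 members. Of 10 genes listed 9 were measured, and Sting, key and the NF-kappaB gene Rel lay above a level of 3. Sting is the target of the dsRNA, so its own level is no result about the pathway. The other 2, key (-0.38, described above) and Rel, had non-overlapping lower groups, as did 5.76% of all genes above that level. Rel had 29.7 and 28.0 in control and 24.1 and 27.7 in RNAi cells (-0.15, SE 0.09), so that its groups were only just apart, and -0.05 without RNAi number 1. Nazo, a gene with an antiviral role that acts after STING, was dim, with 2.93 and 3.02 against 1.37 and 1.94 (-0.59, SE 0.24). IKKbeta, which encodes the kinase of the complex, had 2.41 and 3.14 against 2.43 and 3.35. Srg1 and Srg2, both STING-regulated genes, and the genes of the cGAS-like receptors, cGlr1 and cGlr2, reached at most 1.48 in the dsDNA arrays. None of the members other than Sting passed the adjusted limma test with or without the filter.

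Imd pathway genes included key and Rel, which stand in the list above as well. Of 13 members above a level of 3, 4 were lower with non-overlapping groups (30.8%) and 0 higher, where all genes gave 5.76% and 11.1%. Beside key and Rel these were PGRP-LA, of the peptidoglycan recognition protein family (11.3 and 12.4 against 10.7 and 10.3, -0.15), and Uev1A, a ubiquitin-conjugation cofactor gene (127 and 125 against 121 and 124, -0.04). PGRP-LA and Uev1A were named after their values were seen. The median of the 13 was -0.045, and without RNAi number 1 or number 2 it was -0.054 or -0.053. The negative regulator gene PGRP-LF had 8.22 and 8.95 in control and 5.93 and 9.66 in RNAi cells (-0.16, SE 0.20), with overlap. No antimicrobial peptide gene of the 7 measured lay above a level of 3, and the highest value in the 4 arrays was 2.61.

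In Toll, JAK/STAT and small RNA genes the medians above a level of 3 changed sign with the RNAi array left out. The 7 Toll genes had a median of 0.025, with -0.081 without number 2 and 0.114 without number 1. cactin, a gene of a Cactus-interacting protein, had 29.2 in both control arrays and 33.9 and 31.7 in RNAi cells (0.16, SE 0.04), and the protease gene grass 7.07 and 6.60 against 7.58 and 8.09 (0.17). The 6 JAK/STAT genes had a median of -0.019, and -0.250 or 0.166 without number 2 or number 1. The transcription factor gene Stat92E had RNAi values on both sides of control, with 32.6 and 32.8 in control and 29.1 and 45.1 in RNAi cells, and the receptor gene dome had 18.8 and 20.6 against 20.3 and 22.9 (0.13). Small RNA genes had 0.002 over 10 members, with the exportin gene Ranbp21 at 24.8 and 25.9 against 28.3 and 30.1 (0.20, SE 0.07) and the helicase gene armi at 7.70 and 7.72 against 7.80 and 10.4 (0.20). In these lists 2 of 7, 0 of 6 and 2 of 10 members were higher with non-overlapping groups, where 11.1% of all genes were. The control cells also carried dsRNA, so a response to dsRNA as such is on both sides of the comparison.

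The same dependence on the array held for most lists. Of 25 lists with at least 3 members above a level of 3, 17 had medians of opposite sign without RNAi dsDNA number 1 and without number 2. Mitochondrial ribosomal protein genes had 0.048 over 68 members, and 0.202 without number 2 and -0.093 without number 1. The intensities of all 69 measured members summed to 2094 and 2064 in the control arrays and to 2400 and 1921 in the RNAi arrays. Thus 1 RNAi array lay above both controls and the other below. The sums that follow are also over all measured members of a list, dim ones included. Proteasome genes had -0.048 over 26 members, 24 of them negative (1539 of 3543 among all genes), but 0 had non-overlapping groups (5.76% lower and 11.1% higher among all genes), and the median was 0.110 without number 2. Their sums were 2177 and 2332 in control and 2418 and 1973 in RNAi cells. Respiratory chain genes had 0.034 over 50 members (0.121 without number 2, -0.046 without number 1), and hemocyte markers -0.054 over 11 (-0.170 and 0.074), with sums of 944 and 959 against 852 and 992. The sums of JNK and p38 kinase genes were 388 and 421 against 366 and 458, with a median of 0.028.

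**Figure D5:**
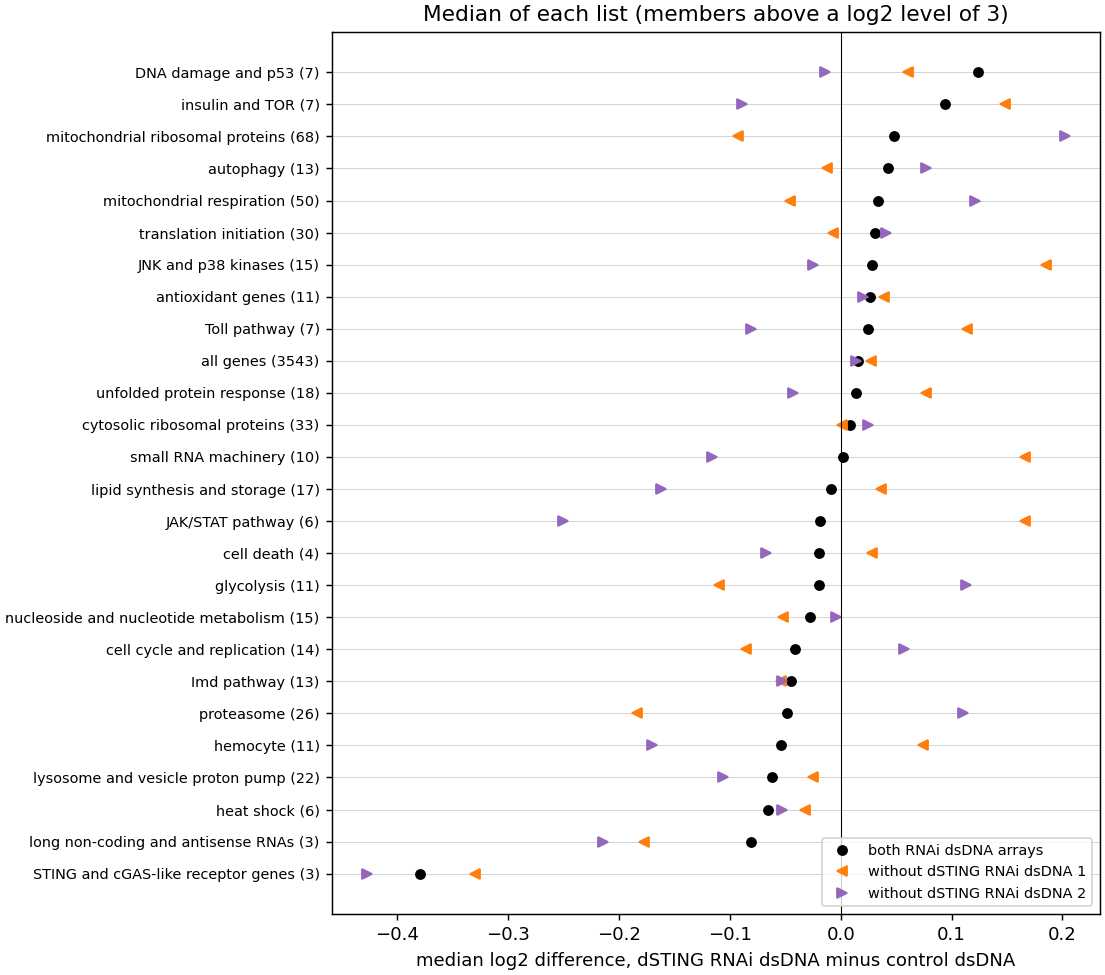
Median log2 difference (dSTING RNAi dsDNA minus control dsDNA) of the members above a level of 3 in each list, with their number in parentheses, for both RNAi dsDNA arrays (circles) and without number 1 or number 2 (triangles). The STING list, which holds the targeted gene and has 3 members, lies at -0.379, and for 17 of 25 lists the triangles are on opposite sides of 0.

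The other 8 lists had a median of the same sign whichever RNAi dsDNA array was left out, the STING and Imd lists among them. Lysosome and proton pump genes had -0.062 over 22 members, 18 of them negative (1539 of 3543 among all genes). Their median was -0.025 without number 1, -0.106 without number 2 and -0.059 in mock cells. Of the 22 members only the protease gene cathD, named after its values were seen, had non-overlapping groups, at 182 and 180 against 174 and 173 (-0.06, SE 0.03), 1 lower of 22 (4.55%, near the 5.76% of all genes). The heat shock list had -0.066 over 6 members, all negative (1539 of 3543 among all genes). None of the 6 had non-overlapping groups, which with 6 members is near the 5.76% of all genes. Hsp26, a small heat shock protein gene, had 23.6 and 34.4 in control and 32.0 and 17.3 in RNAi cells (-0.26), which is 0.16 without RNAi number 2. The constitutive chaperone gene Hsc70-4 had 931 and 1052 against 790 and 1043 (-0.12). Nucleoside and nucleotide genes had -0.028 over 15 members, CG17224 being the lowest of them. CG6330, a second member of the uridine phosphorylase family, had 175 and 205 against 197 and 167 (-0.06, SE 0.14), and CG3788 was near the floor at 1.23 to 1.47. The thymidylate synthase gene Ts had 15.4 and 19.0 against 16.5 and 13.3 (-0.20), with overlap. Cytosolic ribosomal protein genes had 0.008 over 33 members, with the largest at 0.10 (RpL34a, 223 and 201 against 254 and 205), and antioxidant genes 0.026 over 11, led by GstD2 (34.4 and 26.8 against 30.5 and 41.3, 0.22). In the non-coding list 3 members lay above a level of 3, and after lncRNA:CR32368 the next, lncRNA:alphagamma-element:CR32865, had 16.5 and 16.4 against 16.7 and 14.5 (-0.08).

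Stress, growth and metabolic genes of the other lists had small differences that did not pass the test. DNA damage and p53 genes had a median of 0.124 over 7 members, 2 of them higher with non-overlapping groups (28.6%, where all genes gave 11.1%), and -0.014 without RNAi number 2. Irbp, the Ku70 gene of DNA end joining, had 21.8 and 23.8 in control and 25.4 and 27.6 in RNAi cells (0.21, SE 0.08), and the checkpoint kinase gene grp 16.8 and 21.5 against 14.2 and 19.3 (-0.19). Unfolded protein response genes had 0.014 over 18, with Herp, an ER-associated degradation gene, at 16.5 and 20.5 against 21.6 and 23.3 (0.27, SE 0.11; 0.26 in mock) and wfs1 at 9.58 and 8.89 against 10.5 and 12 (0.26). Of these 4 genes, Herp had a like difference in mock cells, while Irbp had -0.02, grp 0.13 and wfs1 -0.17 there. In JNK and p38 genes Traf4 had 22.4 and 21.8 against 23.1 and 29.6 (0.23) and slpr, a mixed-lineage kinase gene, 0.22. Autophagy genes had 0.043 over 13 (Atg13 -0.17, Atg9 0.14), insulin and TOR genes 0.094 over 7 (REPTOR 0.15, InR 0.11) and cell death genes -0.020 over 4 (Debcl -0.20, Dark 0.12). Cell cycle and replication genes had -0.041 over 14. Mcm6, of the replicative helicase, had 46.9 and 45.6 against 41.6 and 38.8 (-0.20, SE 0.07), and the securin gene pim was at 0.18.

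In metabolism and translation, lipid genes had a median of -0.009 over 17 members, with Dci lowest and Agpat3 at -0.11. Glycolysis genes had -0.020 over 11 (Pdk 0.19, Gapdh1 -0.12), and translation initiation genes 0.031 over 30, 5 of them higher with non-overlapping groups (16.7%, where all genes gave 11.1%), with eIF2D at 0.22 and eIF4G2 at 0.15. Gapdh1 had 306 and 343 in control and 367 and 242 in RNAi cells, on both sides of the controls. The nuclear receptor gene ftz-f1 was the only ecdysone gene above a level of 3 (14.6 and 13.7 against 12.5 and 20.6, 0.17). In the larger lists the members with the largest differences were mRpL21 (-0.31) and mRpL42 (0.27), ND-18 (0.20) and ND-B17 (0.15), Prosalpha4 (-0.12) and Rpn7 (-0.12), VhaM9.7-c (0.17) and VhaAC45 (-0.14), RpL24-like (0.08) and Prx3 (0.12). Among cell type markers Col4a1 had -0.14 and the scavenger receptor gene pes 0.12, both with overlap, and tud had 129 and 128 against 146 and 139 (0.16, SE 0.05). None of the genes in this paragraph passed the adjusted test with limma.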

How the data were processed

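Per the labels' protocols, total RNA was extracted from lysed S2 cells and labelled with biotin by an Affymetrix 3' kit. The values the authors deposited are linear intensities, 1 for each probe set on each array, with a floor of 1. How they were background-corrected and normalized, and with what software, is not given in the sources used here. Of 18952 probe sets, 183 AFFX controls were left out. Platform annotation, updated by gene identifier against Release 6 plus ISO1 MT, named 1 gene for 13647 probe sets (13544 matched by identifier), several for 402 and none for 4720.

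log2(intensity + 1) was fitted with limma 3.58.1 in R 4.3.3 (4 group means, 8 arrays, contrasts, eBayes; 4 residual and 1.32 prior degrees of freedom), two-sided, and tested on simulated data. SDs and means are over 2 arrays, and the number of arrays limits the precision. Groups follow the titles. The correlation of deviations of same-numbered dsDNA arrays was 0.0635, and the numbers were not taken as pairs. Named genes were Sting, the 12 lowest and 12 highest genes above a level of 3 with non-overlapping groups, the STING list, 2 members per other list and neighbours. Members and lists were chosen with earlier results of these data known. Lists carry no test. Alternatives were a replicate block, other scalings, filters, moderation, pseudocount, probe sets and arrays.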

Additional observations from a re-analysis of the deposited data

How the results depend on the processing

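No probe set was called at an adjusted p under 0.05 by limma over all probe sets, and none was called higher in any setting run. Lower calls were made only with a filter on level: 3 were made with the filter at the median level (9384 probe sets, adjusted p 0.00397 for Sting) and 3 at a level of 3 (4189 probe sets, 0.00524), with the same log2 difference of -2.82 for Sting. The filter at 3 changed both the number of tests and the moderation: the prior degrees of freedom were 4.51 in place of 1.32, and the unadjusted limma p of Sting was 1.25e-06 in place of 0.000104. With the level filter and 1 array left out, in fits chosen after seeing the data, 0 to 3 were called lower, and Sting ranged from -3.08 to -2.56. With only the 4 dsDNA arrays and that filter 2 were called, Sting (-2.82) and CG17224.

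The replicate block, which takes equal numbers as pairs, gave 0 calls over all probe sets and, with the level filter, 2 lower ones, Sting (-2.82) and lncRNA:CR32368, where the fit without it gave 3. The deviations of same-numbered dsDNA arrays correlated at 0.0635. With 2 arrays a group this is a single value, and it cannot tell whether same-numbered arrays shared a culture or a batch.

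Over the 83 named probe sets and 27 settings, 1376 of 1415 values kept their direction and their side of the threshold, 10 passed the threshold only in that setting, and 29, in 26 probe sets, changed direction, in each case with 1 array left out. The ranges of log2 difference with 1 array left out were IKKbeta (-0.13 to 0.21), Srg1 (-0.18 to 0.03), cGlr2 (-0.03 to 0.21), PGRP-LF (-0.47 to 0.15), Stat92E (-0.16 to 0.45), Atg9 (-0.0 to 0.28), VhaM9.7-c (-0.07 to 0.42), grp (-0.4 to 0.02), Hsp26 (-0.69 to 0.16), Hsc70-4 (-0.32 to 0.08), Prosalpha4 (-0.35 to 0.11), Rpn7 (-0.25 to 0.01), RpL34a (-0.05 to 0.26). For the rest they were RpL24-like (-0.08 to 0.24), mRpL42 (-0.02 to 0.55), eIF4G2 (-0.24 to 0.54), ND-18 (-0.14 to 0.53), Agpat3 (-0.24 to 0.03), Gapdh1 (-0.42 to 0.18), Prx3 (-0.0 to 0.25), REPTOR (-0.22 to 0.51), pim (-0.02 to 0.38), ftz-f1 (-0.16 to 0.51), lncRNA:alphagamma-element:CR32865 (-0.18 to 0.01), Col4a1 (-0.27 to 0.0), pes (-0.08 to 0.32). The cause was not tested. No named gene changed direction under another scaling, which moved the median of all probe sets by -0.023 (quantile) or 0.010 (median centring). Many STING, antimicrobial peptide and marker genes lay near the floor, where a difference is not detectable.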
